A study of Danio rerio with 96 samples.

Results

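The amplicon described here covers 225 bp of zebrafish chromosome 15, chr15:4079178-4079402 (1-based, build GRCz10 per the submitters' processing notes). It was chosen by position, and its members are the 13 cytosines in CpG context that 48 or more of the 96 libraries covered with 30 reads or more, out of 50 such CpGs in 8 amplicons. The gene is left unnamed, since the annotation of GRCz10 was not used here. The CpGs are numbered 1 to 13 by position. CpGs 1 to 5 lie at 4079241, 4079245, 4079251, 4079256 and 4079262. CpGs 6 to 10 lie at 4079277, 4079289, 4079294, 4079310 and 4079328, and CpGs 11 to 13 at 4079350, 4079361 and 4079376.

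DNA came from zebrafish larval heads, dissected at 5 days post-fertilisation, with 24 libraries in each of 4 groups. The groups were wild-type larvae in 0.2% ethanol (wild-type control), wild-type larvae in 100 µM betamethasone, larvae labelled glucocorticoid receptor (GR) mutant in 0.2% ethanol (mutant control) and GR mutant larvae in 100 µM betamethasone. The sources used here do not give the mutant allele, the length of exposure or the clutches. A head holds many cell types, so each level is an average over them, and whether the groups differed in cell makeup was not tested.

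Methylation of the cytosine in a CpG is copied when a cell divides and is removed or added by enzymes during development. GR is a nuclear receptor that binds cortisol, moves into the nucleus and regulates genes through DNA sites. Betamethasone is a synthetic glucocorticoid that binds the same receptor. In bisulfite amplicon sequencing a cytosine without methylation appears as T and one with it stays C, and the methylation level is the percentage of reads at a cytosine that show C.

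All 13 CpGs had values in 95 larvae, and 1 wild-type betamethasone library with 19 cytosine calls gave none. The median depth over libraries was 8011 reads per CpG, and 56 libraries had at least 8000 reads at every CpG. No count in the data exceeded 8088, and 89 libraries reached 8000 at some cytosine. The errors below are the SD over larvae for a level and the SE for a difference of means.

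The profile was high at the first CpG, fell towards the middle and rose again. Over all 95 larvae CpG 1 had the highest mean, at 79.3% ± 15.3 (SD, n = 95). CpGs 2 to 7 had means between 51.3% and 66.1%. The lowest stretch was CpGs 8, 9 and 10, with means of 42.2% ± 23.6, 44.6% ± 22.2 and 40.1% ± 22.9 (SD, n = 95). CpGs 11, 12 and 13 stood at 62.2% ± 21.6, 60.2% ± 22.8 and 56.1% ± 23.4 (SD, n = 95). CpG 1 was the most methylated CpG in 64 of 95 larvae, and CpG 8, 9 or 10 was the least methylated in 77. The 13 CpGs span 135 bp with gaps of 4 to 22 bp, so these steps in level lie within short stretches of DNA. Single larvae departed widely from the mean profile, with CpG 10 ranging from 3.70% to 96.3% and CpG 13 from 7.20% to 96.8%.

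**Figure D1:**
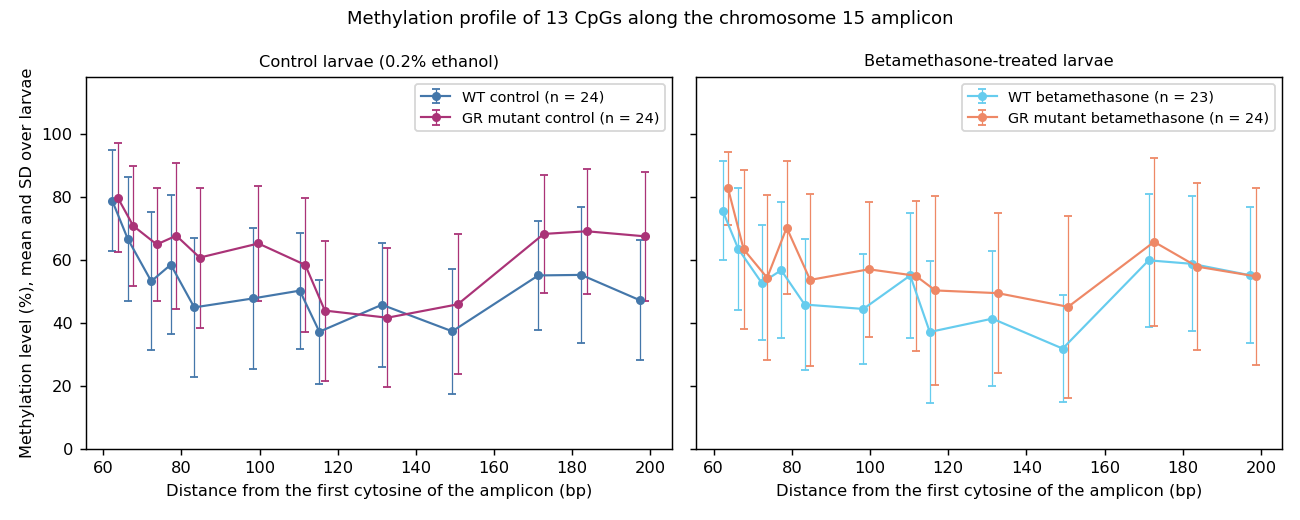
Mean methylation level (%) with SD over larvae at each of the 13 CpGs against distance (bp) from the first cytosine of the amplicon, with control larvae on the left and betamethasone-treated larvae on the right, and small sideways offsets to separate the groups. Each group has its highest mean at CpG 1, and CpG 13 is 67.4% in mutant controls against 47.2% in wild-type controls.

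The level of the whole amplicon, reads summed over the 13 CpGs, was 56.1% ± 17.6 (SD, n = 95). It ranged from 19.6% to 94.5%, with 4 larvae below 30% and 4 above 90%. Within a larva the most and least methylated CpG lay 53.6 percentage points apart in the median, and between 7.94 and 87.5 points at the extremes. The steps within a larva set this amplicon apart from chr6:49743949-49744115, the amplicon with the largest SD between larvae (27.3, against 17.6 here). The SD over the CpGs of a larva had a median of 13.9 points here and 1.58 points over the 5 CpGs on chromosome 6. It was larger here in 93 of 94 larvae (two-sided sign-flip permutation test, p = 1e-05, the smallest that 100000 resamples can give). The remaining amplicons were not compared in this way.

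In the plot of every library these steps appear as abrupt changes between CpGs, in some libraries up and down more than once. In wild-type control 13, CpG 1 had a level of 95.1%, CpG 3 had 86.9%, CpG 4 had 89.1%, CpG 5 had 25.9%, CpG 12 had 94.1% and CpG 13 had 29.1%. Wild-type control 22 had nearly the same pattern, with 88.2% at CpG 4, 28.5% at CpG 5, 93.4% at CpG 12 and 31.8% at CpG 13. In mutant betamethasone 5 and 11, CpG 1 stayed high, at 91.4% and 91.2%, CpG 3 was at 8.43% and 6.91%, CpG 7 at 54.2% and 52.5%, and CpG 10 at 4.75% and 3.70%.

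**Figure D2:**
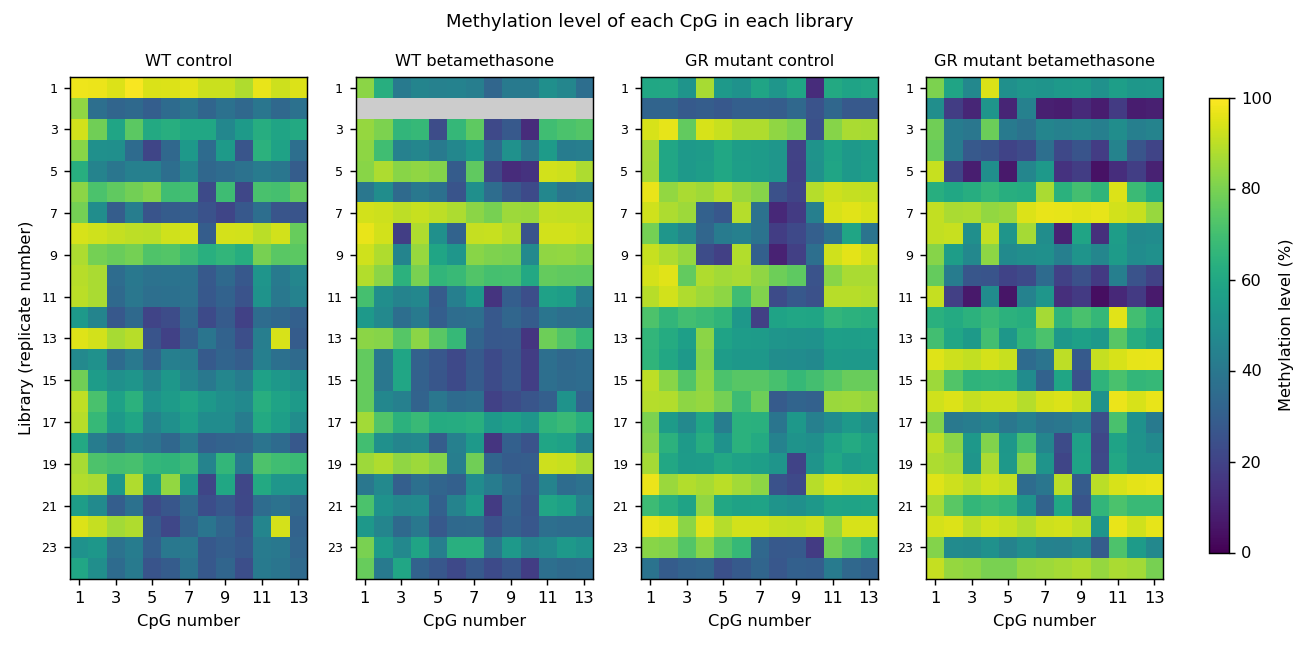
Methylation level (%, colour) of CpGs 1 to 13 (columns) in each library (rows, by replicate number) of the 4 groups, with the library without values in grey. Abrupt changes in level between neighbouring CpGs of 1 library are common, and several libraries of a group share the same pattern.

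Some libraries had almost the same 13 levels. Where both libraries had 500 or more reads at every CpG, 25 of 4005 pairs differed by less than 5 percentage points at every CpG. This limit was chosen after seeing the values. The largest difference at any CpG in these matching pairs was 3.86 points, and the next pair lay at 5.31. The median over the other pairs was 46.1, but 21 of them differed by less than 10 points at every CpG. The limit of 5 points therefore does not fall in a wide gap. These 21 pairs were not treated as matches, so similar libraries can remain as separate profiles where matching libraries are counted once. Of pairs within a group 22 of 968 (2.27%) matched, and of pairs across groups 3 of 3037 (0.0988%). The matches within a group joined 34 libraries into 15 sets. In mutant betamethasone larvae all 6 matching pairs had replicate numbers 6 apart, out of 17 such pairs compared, and in the other groups 0 of 15, 16 and 16 such pairs matched.

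The 3 matches across groups were wild-type control 20 with mutant betamethasone 19, wild-type betamethasone 13 with mutant control 23, and wild-type betamethasone 23 with mutant control 17. The first of these pairs also matched at both other amplicons that could be compared, and the other pairs at 1 of 6 each. Over all 25 pairs, 32 of 131 comparisons at other amplicons matched (24.4%), against 5.92% for the other pairs, and 1 pair matched at every amplicon compared. Each library was counted as 1 larva, which the labels do not state outright, so "larvae" and n here count libraries. Calls that are lost when matching libraries are counted once are given with that value. Why libraries matched was not tested. Per the labels' protocols, 100 pg of converted DNA entered 40 cycles of PCR for each amplicon.

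Larvae with a high level at 1 CpG tended to have a high level at the others, and over all larvae the correlations did not fall steadily with distance along the DNA. With group means removed, the 78 pairs of CpGs had a median Pearson's r of 0.627 over 95 larvae (0.291 to 0.943). The CpGs share reads and libraries, so these values are descriptions. Pairs 1 to 10 bp apart had a median r of 0.673, and pairs 11 to 25 bp apart 0.686. It was 0.578 at 26 to 50 bp, 0.547 at 51 to 75 bp and 0.630 at 76 to 100 bp. The pairs more than 100 bp apart had the highest median, 0.814. Within single groups their median was also the highest of the 6 classes in wild-type betamethasone (0.791, n = 23), mutant control (0.838, n = 24) and mutant betamethasone larvae (0.780, n = 24). In wild-type controls it was 0.679 (n = 24), below the 0.736 of pairs 1 to 10 bp apart and the 0.694 of pairs 11 to 25 bp apart. Across the 78 pairs, distance and r had a correlation of 0.121. With matching libraries counted once, which left 76 profiles, the median r was 0.629 and the medians of the 6 distance classes ran from 0.543 to 0.811.

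Over all larvae with group means removed, CpGs 2 and 3 had higher correlations with CpGs 11 to 13 than with the middle CpGs 8 to 10, most clearly in mutant controls. CpGs 2 and 3 had r of 0.804 to 0.885 with CpGs 11 to 13, at distances of 99 to 131 bp. With CpGs 8 to 10, which lie nearer, their r was 0.392 to 0.584. CpGs 11 to 13 had r of 0.493 to 0.630 with CpGs 8 to 10. The outermost, CpG 1, had lower values, r of 0.529 to 0.646 with CpGs 11 to 13 and 0.291 to 0.332 with CpGs 8 to 10. Within mutant controls the 6 pairs of CpGs 2 and 3 with CpGs 11 to 13 had r of 0.925 to 0.974, and the 6 pairs with CpGs 8 to 10 had -0.00448 to 0.339 (n = 24). In the other groups these ranges overlapped. In wild-type controls they were 0.593 to 0.986 and 0.409 to 0.737 (n = 24), in wild-type betamethasone larvae 0.481 to 0.949 and -0.0882 to 0.651 (n = 23), and in mutant betamethasone larvae 0.780 to 0.9905 and 0.607 to 0.910 (n = 24). CpGs 11 to 13 reached r of 0.961 with CpGs 8 to 10 in wild-type controls and 0.937 in mutant betamethasone larvae, against at most 0.330 in mutant controls. Of the 11 pairs with r above 0.8, 8 were at least 76 bp apart. CpG 11 and CpG 13 had the highest correlation of all pairs (r = 0.943, Spearman's rho = 0.935, n = 95). CpG 13 had the highest mean r with the other 12 CpGs, at 0.735, and CpG 1 the lowest, at 0.496. A single component held 66.2% of the variance of the 13 CpGs and the next 9.27%.

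**Figure D3:**
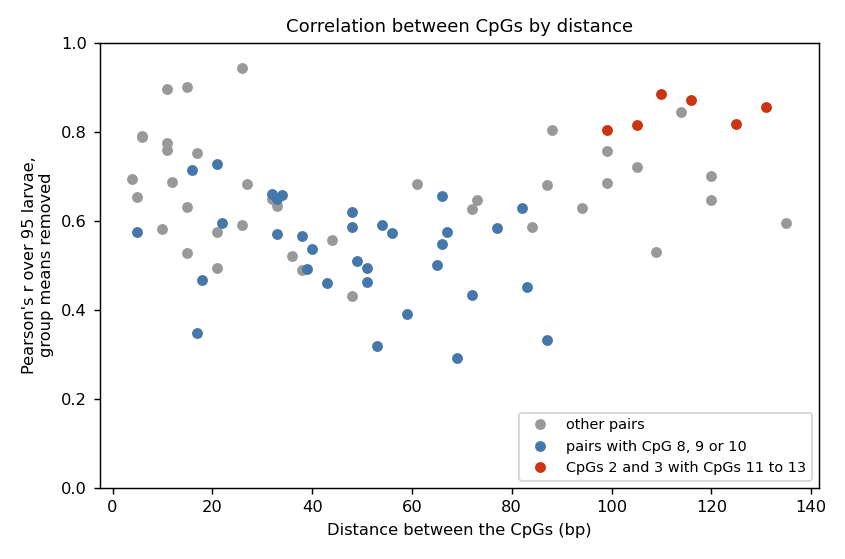
Pearson's r between the levels of 2 CpGs over 95 larvae with group means removed, against the distance between them (bp), 1 point per pair, 78 pairs. Pairs that join CpGs 2 and 3 with CpGs 11 to 13 (red) lie above 0.8 at about 100 bp and more, above most pairs with CpG 8, 9 or 10 (blue).

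The first comparison of groups asked how genotype went with methylation in untreated larvae. Mutant controls had a higher mean than wild-type controls at 12 of 13 CpGs, and 2 passed the test, CpG 6 and CpG 13, both higher. By beta-binomial regression with Benjamini-Hochberg adjustment over all 50 CpGs, 36% of the 50 passed in this comparison and 22% of the 50 were called higher in mutants, so 2 of 13 is no larger a share than over all CpGs. The median difference over the 13 CpGs was 9.20 percentage points, against 3.38 over the 50. At an unadjusted p below 0.05, 5 of the 13 passed, as did 42% of the 50.

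CpG 13 ran from 26.2% through a median of 40.9% to 94.6% in wild-type controls. In mutant controls it ran from 27.9% through 61.1% to 94.1%. The ranges overlapped almost entirely, but 21 of 24 mutants lay above the wild-type median. The means were 47.2% ± 19.0 and 67.4% ± 20.6 (SD, n = 24 each), a rise of 20.3 points (SE 5.72, adjusted p = 0.00432, beta-binomial test).

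CpG 6 ran from 19.5% through a median of 39.0% to 94.6% in wild-type controls, and from 28.4% through 63.8% to 93.3% in mutant controls. Here 22 of 24 mutants lay above the wild-type median, again with overlapping ranges. The means were 47.7% ± 22.3 and 65.2% ± 18.4 (SD, n = 24 each), a rise of 17.5 points (SE 5.90, adjusted p = 0.0315, beta-binomial test). By the same test, the CpG 6 call was lost when matching libraries counted once (16.3, adjusted p = 0.0934) and when those above 2% non-CpG methylation were removed (13.3, adjusted p = 0.199). CpG 13 passed in all 11 alternatives run, with differences of 18.6 to 22.3. These are not separate checks. Read minimums of 10 and 100 kept the same libraries, and no conclusion is drawn from the replicate block. Leaving out CpGs within 30 bp of an end, where CpG 13 lies, was applied to the amplicon level only.

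Around these CpGs the means were higher in mutant controls without passing. At CpG 5 they were 60.7% against 44.9% in wild-type controls, a gap of 15.8 points (SE 6.38, adjusted p = 0.0672, beta-binomial test). CpG 11 stood at 68.2% against 55.0% (adjusted p = 0.0530 by the same test) and CpG 12 at 69.1% against 55.2% (adjusted p = 0.0964). CpG 3 had 64.9% against 53.2%, and CpG 4 had 67.7% against 58.5%. At the start of the profile the groups were close, with CpG 1 at 79.8% against 78.8% (difference 0.967, SE 4.83) and CpG 2 at 70.8% against 66.6%. CpGs 7, 8 and 10 were higher in mutants by 8.15, 6.71 and 8.57 points (SE 5.73, 5.66 and 6.07). CpG 9 alone had the lower mean in mutant controls, 41.6% against 45.7% (difference -4.11, SE 6.04).

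The whole amplicon ran from 31.5% through a median of 48.7% to 94.5% in wild-type controls and from 29.9% through 59.6% to 91.7% in mutant controls. The means were 52.1% ± 16.8 and 61.8% ± 15.1 (SD, n = 24 each). The difference of 9.69 points (SE 4.61, higher in 21 of 24) did not pass (adjusted p = 0.150, beta-binomial test over 8 amplicons, of which 37.5% passed). One library carried weight here. Wild-type control 1 had the highest amplicon level of all larvae, 94.5%. Without it the difference was 11.5 points (SE 4.31) and passed (adjusted p = 0.0211, beta-binomial test). Then 5 of 13 CpGs passed in place of 2, with CpGs 5, 11 and 12 added. In the main test 36% of the 50 CpGs passed, and their share without this library is not given here. That library was left out for its share of reads without a cytosine call, described below, and after seeing the data. Over 12 alternatives the amplicon difference ran from 6.47 to 11.5 points and passed in 3.

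**Figure D4:**
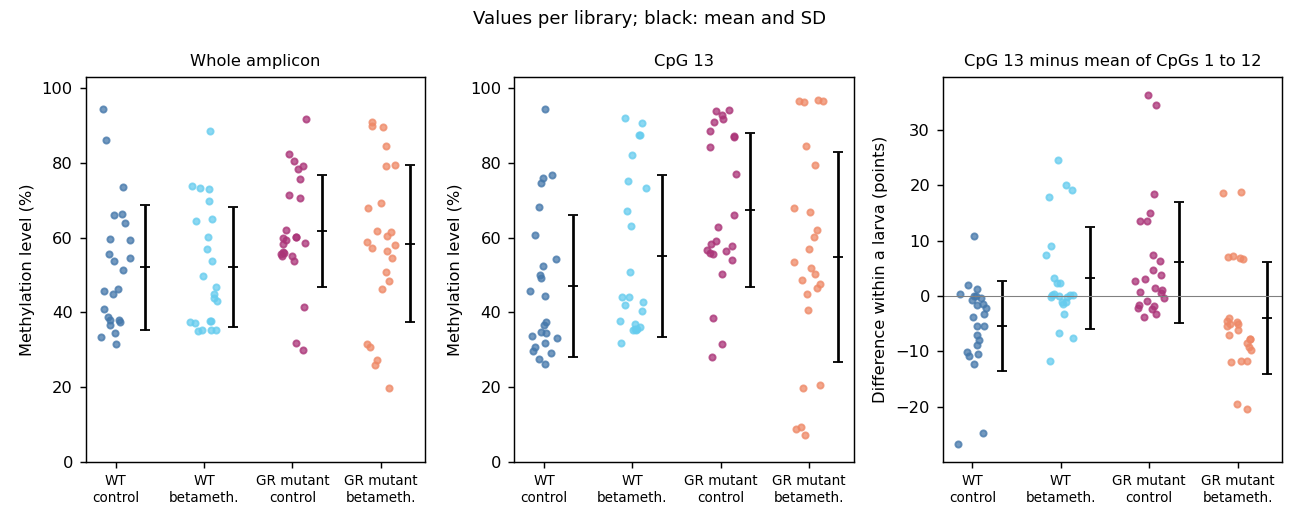
Values of each library by group for the amplicon level (%), the level of CpG 13 (%) and the level of CpG 13 minus the mean of CpGs 1 to 12 of the same larva (percentage points), with mean and SD in black beside the points (n = 24, 23, 24 and 24). On the right, the group means are -5.37, 3.20, 6.11 and -3.95 from left to right.

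Betamethasone in wild-type larvae gave no change in the level of a single CpG that could be told from the spread. By the beta-binomial test 0 of 13 CpGs passed, against 22% of the 50, and 0 of 13 had an unadjusted p below 0.05, as 28% of the 50 did. The means of the 2 groups were close along the whole profile. The differences ran from -5.49 points at CpG 10 (31.8% with betamethasone, 37.3% in control, SE 5.38) to 7.92 at CpG 13 (55.1% and 47.2%, SE 5.95). CpG 1 stood at 75.7% against 78.8%, CpG 6 at 44.4% against 47.7%, and CpG 8 at 37.1% against 37.2%. The amplicon level of betamethasone larvae ran from 35.1% through a median of 46.8% to 88.5%. Its mean of 52.1% ± 16.0 (SD, n = 23) differed from that of controls by 0.0110 points (SE 4.78, adjusted p = 0.893, beta-binomial test). A difference of several points in either direction lies within this error.

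In mutant larvae betamethasone also left 0 of 13 CpGs past the threshold of the same test, where 2% of the 50 passed, and 0 of 13 had an unadjusted p below 0.05, as 16% of the 50 did. Means were lower with betamethasone at 9 of 13 CpGs. The largest differences were at CpG 13 (54.7% against 67.4%, difference -12.7, SE 7.12), CpG 12 (57.8% against 69.1%, -11.2, SE 6.77) and CpG 3 (54.3% against 64.9%, -10.6, SE 6.49). CpGs 8 and 9 had higher means, by 6.40 (SE 7.62) and 7.80 (SE 6.87). The spread was wide in treated mutants, with CpG 13 running from 7.20% through a median of 52.6% to 96.8%. Their amplicon level ran from 19.6% through 58.5% to 91.1%, with a mean of 58.4% ± 21.0 (SD, n = 24), and differed from that of mutant controls by -3.41 points (SE 5.29, adjusted p = 0.652, beta-binomial test).

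Among treated larvae, mutants and wild type differed at 0 of 13 CpGs by the beta-binomial test, where 10% of the 50 passed. At an unadjusted p below 0.05, 2 of 13 passed and 24% of the 50, and the 2 were CpG 4 (70.2% in mutants, 56.7% in wild type, SE of the difference 6.22) and CpG 6 (57.0% and 44.4%, SE 5.70), both with an adjusted p of 0.146. By a quasi-binomial F test, which weights larvae by reads, CpG 6 and CpG 10 passed. Their differences, also weighted by reads, were 16.5 points (adjusted p = 0.0303) and 17.9 points (adjusted p = 0.0469). The share of the 50 CpGs that passed by this test is not given here. CpG 13, which differed between the control groups, stood at 54.7% and 55.1% in the treated groups (difference -0.338, SE 7.30). The amplicon difference was 6.26 points (SE 5.44, adjusted p = 0.452), and 2.24 with matching libraries counted once (SE 6.08, adjusted p = 0.824). The genotype by treatment interaction passed at 0 of 13 CpGs by the beta-binomial test, against 14% of the 50, and at an unadjusted p below 0.05 it was 0 of 13 and 28% of the 50. It was lowest at CpG 13, where the betamethasone difference was 20.6 points lower in mutants than in wild type, a value of -20.6 (SE 9.28, unadjusted p = 0.0541, adjusted p = 0.180).

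Because larvae differed in the level of the whole amplicon, each CpG was also taken relative to its own larva, as its level minus the mean of the other 12 CpGs. Of 52 permutation tests (13 CpGs in 4 pairs of groups, 100000 resamples, two-sided, adjusted together), 7 passed and 14 had an unadjusted p below 0.05. The 13 relative levels of a larva balance out, so a higher value at a CpG means lower values among the others. The 7 calls are therefore not separate results, and relative levels were not tested at the other amplicons. CpG 13 passed in 3 of the 4 pairs. In wild-type controls it lay below the rest of its amplicon, at -5.37 ± 8.13 points (SD, n = 24), and with betamethasone above it, at 3.20 ± 9.21 (SD, n = 23). The difference of group means was 8.57 points (SE 2.54, adjusted p = 0.0185, permutation test), and 20 of 23 treated larvae lay above the control median. In mutant controls it lay at 6.11 ± 10.9 and in mutant betamethasone larvae at -3.95 ± 10.0 (SD, n = 24 each), a fall of 10.1 points, -10.1 (SE 3.03, adjusted p = 0.0185, permutation test, lower in 18 of 24). Mutant controls were above wild-type controls by 11.5 points (SE 2.78, adjusted p = 0.00104, permutation test, higher in 23 of 24). Treated mutants were below treated wild type by a difference of -7.15 that did not pass (SE 2.81, adjusted p = 0.0758, permutation test).

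The relative level of CpGs 3 and 9 passed in 1 pair of groups each and that of CpG 12 in 2, each with an adjusted p of 0.0374 by the permutation test. CpG 3 and CpG 12 were lower with betamethasone in mutants, by -7.77 (SE 2.64, lower in 18 of 24) and -8.47 (SE 2.90, lower in 16 of 24). CpG 12 was also lower in treated mutants than in treated wild type, by -7.76 (SE 2.65, lower in 16 of 24). CpG 9 was lower in mutant than in wild-type controls, by -15.0 (SE 4.80, lower in 16 of 24). Without the 6 libraries that match across groups, the calls at CpG 3 and CpG 12 had an adjusted p of 0.0596, and with matching libraries counted once CpG 9 had 0.0644.

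The levels of the cytosines outside CpG context differed between the ends and the inside of the amplicon. The amplicon holds 50 cytosines, 37 of them not in a CpG. The first 4 of these, up to 4079199, and the last 9, from 4079379 on, had mean levels of at most 0.0314%. The 22 inner ones, from 4079230 to 4079374 and without a variable pair described next, had mean levels of 0.707% to 2.05%. The last inner one, at 4079374, had 1.27%. CpG 13 lies between the last inner cytosine and the first of the near-zero ones, 26 bp before the last cytosine of the amplicon as defined here. A primer's specific part covers 25 to 30 bp per the labels' protocols. The SD of the level over larvae was 23.4 at CpG 13 and 21.6 at CpG 11. The ends of the PCR product were not located here, so whether a primer reaches CpG 13 was not tested.

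Non-CpG methylation of the inner cytosines, which includes incomplete conversion, differed between groups. It was 1.97% ± 0.873 in wild-type control (SD, n = 24), 1.21% ± 0.496 in wild-type betamethasone (SD, n = 23), 1.41% ± 0.786 in mutant control and 1.29% ± 0.438 in mutant betamethasone larvae (SD, n = 24 each). Wild-type controls were above wild-type betamethasone larvae (difference of betamethasone minus control -0.761, SE 0.206, adjusted p = 0.00296, permutation test, lower in 21 of 23). Mutant controls were below wild-type controls (-0.562, SE 0.240, adjusted p = 0.0461, permutation test, lower in 19 of 24), a call that was lost with matching libraries counted once (-0.391, adjusted p = 0.228, permutation test). The part of conversion in the CpG levels was not tested.

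One pair of neighbouring non-CpG cytosines varied between larvae in another way. At 4079298 a mean of 11.1% of reads gave neither C nor T, taking the depth of neighbouring cytosines as the total, while no other cytosine of the amplicon had a mean above 0.481%. At the cytosine before it, 4079297, which lies in non-CpG context in the reference, the mean level was 12.0% and the highest 90.2%. The values followed each other across larvae (r = 0.992, Spearman's rho = 0.976, n = 95, adjusted p = 0.00014 for each by permutation over 14 relations, and r = 0.981 without the 2 larvae farthest from the median). They lay within 1 percentage point in 72 larvae and within 5 points in 91. Which base stood at 4079298 in the reads without a call cannot be read from these files.

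**Figure D5:**
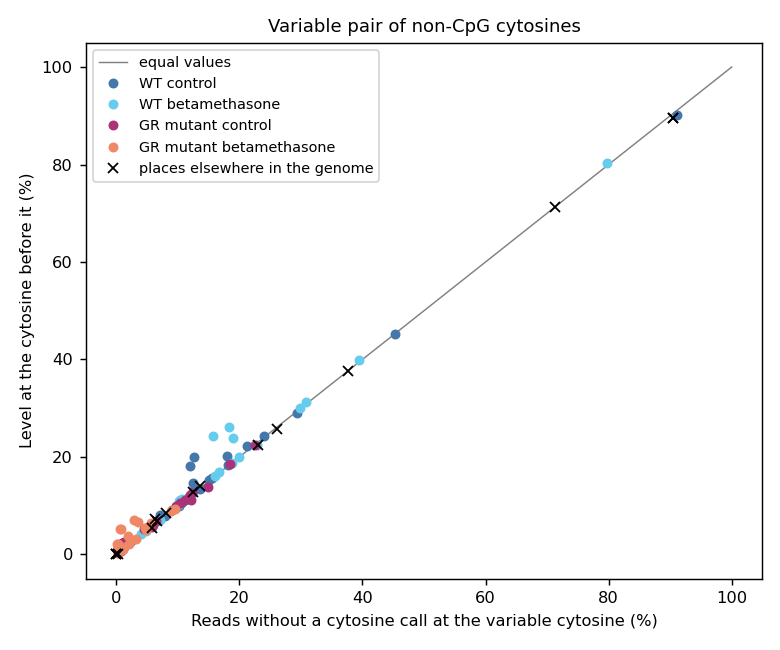
Level (%) at the non-CpG cytosine before the variable cytosine against the share of reads (%) without a cytosine call at the variable one, for 95 larvae by group (circles) and for places elsewhere in the genome with at least 100 reads (crosses). The points follow the line of equal values up to 2 larvae above 50%, and mutant betamethasone larvae lie below 10%.

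The share of reads without a cytosine call at 4079298 differed between genotypes. In wild-type controls it ran from 2.40% through a median of 12.6% to 91.1%, and in wild-type betamethasone larvae from 0.674% through 15.7% to 79.7%. In mutant controls it ran from 0.325% through 5.59% to 22.5%, and in mutant betamethasone larvae from 0.162% through 0.946% to 9.49%. Both wild-type groups were high and overlapped, and treated mutants were lowest. The means were 18.0% ± 17.8 (SD, n = 24), 17.8% ± 16.4 (SD, n = 23), 6.86% ± 6.24 and 2.28% ± 2.68 (SD, n = 24 each). Mutant controls were lower than wild-type controls by -11.2 points (SE 3.85, adjusted p = 0.00026, permutation test, lower in 21 of 24). Treated mutants were lower than treated wild type (-15.5, SE 3.47, adjusted p = 4e-05, permutation test, lower in 24 of 24) and lower than mutant controls (-4.57, SE 1.39, adjusted p = 0.00185, permutation test, lower in 21 of 24). Betamethasone in wild type gave a difference of -0.266 (SE 4.99, adjusted p = 0.958, permutation test). The part of this difference in the CpG differences between genotypes was not tested beyond the values that follow.

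The relation of this share to the amplicon level changed with a few libraries. Over all 95 larvae r was 0.215 and rho -0.0394 (adjusted p = 0.0833 and 0.835, permutation over 14 relations), and r was -0.0269 without the 2 larvae farthest from the median. With group means removed r was 0.371 and rho 0.235 (adjusted p = 0.00147 and 0.156, permutation), and r was 0.173 without 2 larvae. Within wild-type control r was 0.582 (n = 24, rho 0.265, adjusted p = 0.0221 and 0.487, permutation) and within wild-type betamethasone 0.588 (n = 23, rho 0.369, adjusted p = 0.0118 and 0.237, permutation). Without 2 libraries each, these fell to 0.00678 and 0.212, so both rest on those libraries. Within mutant control r was -0.0951 (rho 0.211) and within mutant betamethasone 0.130 (rho 0.0757), with adjusted p of 0.498 to 0.835 for all 4 by permutation (n = 24 each). Without 2 libraries each, the mutant values of r were 0.444 and -0.200 (unadjusted p = 0.0373 and 0.369, permutation), so in mutant controls r rose without them.

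Sequences like this amplicon were read elsewhere in the genome. The spacing of its 50 cytosines was matched for at least 80% of them at 19 other places, on 15 chromosomes and scaffolds, while the other 7 amplicons had 0 such places each. The places shared 42 to 48 of the 50 cytosines and 9 to 13 of the CpGs. They held 363082 CpG reads in all, against 8395979 at the amplicon, a ratio of 4.32% that is no share of a library because counts at the amplicon end near 8000. Wild-type control 5 alone held 81684 of the reads at these places, and mutant betamethasone 18 held 58470. The level of a place pools reads over libraries, so it can rest largely on a few of them. The 15 places with at least 1000 reads had CpG levels of 76.3% to 99.1%. The other 4 had 35 to 204 reads and lower levels, 33.1%, 34.1%, 51.4% and 70.1%. In 87 of 87 libraries with at least 100 such reads the level over all places together lay above that of the amplicon, by 37.5 points in the median (two-sided sign-flip permutation test, p = 1e-05, the smallest that 100000 resamples can give).

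The variable cytosine pair also varied between these places, in reads pooled over libraries. Whether the places differed within a library was not tested. The first cytosine of the pair is listed in non-CpG context at all 19 places. Its level was 89.5% at the place on chromosome 13 and 89.6% at the one on chromosome 9, with 90.4% of reads lacking a cytosine call at the next base in both. On chromosome 1 and chromosome 7 the level was 0% of 6834 and 4202 reads, with 0.0293% and 0.0238% lacking a call. These reads include PCR copies, so no upper limit is drawn from their number. Other places lay between these, such as 71.2% at 1 place on chromosome 20 and 22.4% on chromosome 21. Whether reads from other places were assigned to the amplicon, and how many, was not tested.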

How the data were processed

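For each library the authors deposited a list of cytosines, each with its context, its methylation level as a fraction, a count of methylated reads and a count of all reads. Per the submitters' processing notes, the tools were BS-Seeker2, cutadapt and FastQC and the build was GRCz10. The sources used here give no versions or settings. The deposited fraction equalled the ratio of the counts within rounding except at 0 cytosines, and the counts were used. Groups and replicate numbers came from the labels. The members, lists and tests were chosen with earlier results of these data known.

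An amplicon was a run of cytosines at most 100 bp apart with at least 30 reads in 48 libraries. Every CpG of the amplicon on chromosome 15 is described, with no other rule for naming them. Groups were compared with a likelihood ratio test of beta-binomial regression on methylated and total reads, 1 observation a larva, fitted over all 50 CpGs or 8 amplicons and adjusted by Benjamini-Hochberg at 0.05. Differences are of unweighted group means in percentage points, except that those given with the quasi-binomial test are weighted by reads. The words "higher in" count larvae of the first group beyond the other group's median. Relative levels, non-CpG levels and shares without a call and correlations were tested by permutation, two-sided, with 100000 resamples. The interaction of relative levels permuted residuals and was added after seeing the data.

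Alternatives were read minimums of 10, 100 and 1000, a permutation test, a quasi-binomial F test, removal of libraries above 2% non-CpG methylation, CpGs within 30 bp of an end left out of the amplicon level, the replicate number as a block, and runs of 4 neighbouring numbers averaged. Added after seeing the data were matching libraries counted once, libraries matching across groups left out, and libraries above 50% without a call left out. Not every alternative was run for every result. Relative levels were run again only at 100 and 1000 reads and under the added settings. Their interaction was run again only under the added settings. The labels do not say that libraries came from separate clutches, and p-values then cover only the spread among these libraries. Without molecular identifiers, PCR copies are not separate molecules, so no interval from depth is given. The beta-binomial test and the permutation test between groups were checked on simulated counts. There the larvae were drawn independently, so matching libraries were not covered, and the other tests were not checked in this way. Software was scipy 1.17.1, numpy 2.4.6 and pandas 2.3.3 in Python 3.11.15, with matplotlib 3.10.9 for plots.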

Additional observations from a re-analysis of the deposited data

Results flagged for a closer look

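The betamethasone difference in the level relative to the rest of the amplicon differed between genotypes at 2 of 13 CpGs, CpG 12 and CpG 13, by a permutation test of the interaction that was added after seeing the data (100000 resamples, adjusted over 13 CpGs, n = 95). At CpG 13 the betamethasone difference was 8.57 points in wild type and -10.1 in mutants, which gives an interaction of -18.6 (SE 3.95, adjusted p = 0.00026). It was -18.9 without the libraries that match across groups or without those above 50% lacking a cytosine call, and -20.8 with matching libraries counted once, each with an adjusted p of 0.00013. This is the smallest adjusted p that a single CpG can reach with these resamples. Only these 3 alternatives, all added after seeing the data, were run for this interaction. Removal of libraries above 2% non-CpG methylation was not among them.

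At CpG 12 the difference was 3.81 points in wild type and -8.47 in mutants, with an interaction of -12.3 (SE 4.45, adjusted p = 0.0404, permutation test). It no longer passed without the libraries that match across groups (-11.6, adjusted p = 0.0961) or without those above 50% lacking a call (-12.2, adjusted p = 0.0524), and with matching libraries counted once it was -16.8 (adjusted p = 0.00338). CpG 9 had the opposite sign, 16.9 (SE 6.91), and did not pass (adjusted p = 0.0710, permutation test). Relative levels of a larva balance out, so opposite signs among CpGs are built into this measure. In absolute levels the interaction passed at 0 of 13 CpGs, as given above.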

How the results depend on the processing

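Of 224 values under alternatives, 192 kept their direction and their side of the threshold (counts of calls within 1.5 times) and 11 changed sign, none of them past the threshold before or after. Some of the 192 could not change direction. Each library with values had at least 221 reads at every CpG, so minimums of 10 and 100 reads left the levels here unchanged. The permutation test and the replicate block change the p-value and not the difference. The amplicon difference for betamethasone in wild type, 0.0110, was -2.86 by the quasi-binomial test, -2.80 without libraries above 2% non-CpG methylation, -0.0287 with run averages, -0.649 without CpGs near an end and -0.131 without libraries matching across groups. The amplicon interaction, -3.42, was 1.71 by the quasi-binomial test. Both quasi-binomial values are differences weighted by reads, so their change of sign comes with the weighting and not with the test. The share lacking a call for betamethasone in wild type, -0.266, was 0.402 at 1000 reads, 1.15 with matching libraries counted once, 0.484 without those matching across groups and 0.0966 without those above 50%. The non-CpG difference between the treated groups, 0.0806, was -0.0610 with matching libraries counted once. The count of CpGs past the threshold between the control groups, 2, was 1 without libraries above 2% non-CpG methylation, 1 with matching libraries counted once, 4 with runs of 4 neighbouring numbers averaged and 5 without libraries above 50% lacking a call. Between the treated groups it was 2 by the quasi-binomial test in place of 0. The shares of the 50 CpGs that passed under these alternatives are not given here. The amplicon difference between the control groups, 9.69, passed with run averages (adjusted p = 0.0462) and was 11.5 without libraries above 50% lacking a call. The non-CpG difference between the control groups became -0.585 (adjusted p = 0.0524) where 1000 reads were required and -0.391 (adjusted p = 0.228) with matching libraries counted once. With them counted once the amplicon interaction was -6.73 and that of CpG 13 was -26.0, neither past the threshold.

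Levels at this amplicon gave no clear sign that replicate numbers pair the samples, though single pairs reached r of 0.764. Whether the numbers follow clutch or processing order was not tested. Same-numbered libraries had a median correlation of -0.195 to 0.0468 over the comparisons, above 0.1 in 6 to 11 pairs, and at most 2 libraries of a comparison were closest to their own number. With the replicate block, 6 CpGs passed between the control groups, 5 between the treated groups and 3 for betamethasone in mutants. The amplicon difference between the control groups, 9.69, had an adjusted p of 0.00700 by this likelihood ratio test. The block adds a term per replicate number to a fit of 47 or 48 libraries, which can make its p-values too small. No conclusion is drawn from these calls, and the share of all CpGs that passed with the block is not given here.

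Leaving out libraries above 10% lacking a call, as planned, could be fitted for betamethasone in mutants alone, because 4, 7, 16 and 24 libraries remained. Most libraries have about 8000 reads per CpG, but reads are PCR copies, and how many template molecules they stand for was not tested. SEs of CpG differences between 2 groups ran from 4.03 to 7.72 points, and a difference of 15.8 at CpG 5 did not pass.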

Other observations

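At the 19 places elsewhere in the genome with the cytosine spacing of the amplicon, the 4 groups had close CpG levels. They were 96.1% ± 2.43 (SD, n = 22) in wild-type control, 94.2% ± 4.91 (SD, n = 23) in wild-type betamethasone, 94.0% ± 5.34 (SD, n = 21) in mutant control and 92.9% ± 7.59 (SD, n = 21) in mutant betamethasone libraries. None of the 4 pairs of groups passed a permutation test (adjusted p = 0.238 to 0.573). Differences ran from -2.05 (SE 1.28) for mutant against wild-type controls to -1.17 (SE 2.03) for betamethasone in mutants.

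With group means removed, the level of the amplicon was compared with those of the other 7 amplicons over larvae. The amplicon chr6:41099247 had r of -0.244 (n = 94, adjusted p = 0.0486, permutation over 14 relations) and rho of -0.209 (adjusted p = 0.171), and r of -0.212 without the 2 larvae farthest from the median. The other 6 had r of -0.188 to 0.0845, none with an adjusted p below 0.05.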
